A study of Mus musculus with 20 samples.

Results

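Chemokines are small secreted proteins that attract leukocytes, and chemokine receptors are the seven-pass membrane proteins that bind them. The genes described here are all those whose single symbol on the array is Ccl, Cxcl, Cx3cl, Xcl, Ccr, Cxcr, Xcr or Ackr followed by a number or by a number and a letter. The rule took 52 of the 18194 genes measured, of which 33 encode ligands and 19 encode receptors. The ligands comprise 18 of the CC class, 13 of the CXC class, 1 of the CX3C class and 1 of the C class, classes named for the spacing of the first cysteines. The receptors comprise 15 that signal through G proteins and 4 atypical receptors, which bind chemokines without such signalling. Cx3cr1, the fractalkine receptor, falls outside the rule, and Ccl19 and Ccl21a, for which no probe set carried the symbol alone, were not analysed here.

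Mice immunised with a myelin peptide develop paralysis, called experimental autoimmune encephalomyelitis (EAE), which serves as a model for multiple sclerosis. The arrays hold motor cortex and sensory cortex of the same 10 female C57Bl6 mice, namely 6 mice with EAE and 4 healthy mice, so there are 6 EAE and 4 healthy arrays for each region. At 8 to 12 weeks of age, EAE mice were given MOG35-55 peptide under the skin, 100 µg over both rear flanks and another 50 µg near the tail, and pertussis toxin (400 ng) on days 0 and 3. Their average disease grades were 2.5, 3, 2.75, 3, 3.5 and 3.5 for mice 1 to 6, and the labels give days 18 to 21 in one place and day 21 in another for collection. Healthy mice of the same strain and age were caged with them, and the labels mention no sham injection, so immunisation and disease cannot be told apart. All mice were perfused with saline and then with RNAlater before 1 mm slices were cut. The mice fell into 2 cohorts, each with 3 EAE and 2 healthy mice.

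In healthy cortex most chemokines are scarce. The main exceptions are fractalkine (Cx3cl1), made by neurons, and Cxcl12 and Cxcl14, which neurons and vascular cells also make. In neuroinflammation, glia and blood vessels make CC ligands that attract monocytes through Ccr2, such as Ccl2, Ccl7 and Ccl12. They also make interferon-inducible CXC ligands that attract T cells through Cxcr3, such as Cxcl9 and Cxcl10. Atypical receptors take up chemokines, with Ackr2 binding inflammatory CC ligands and Ackr3 binding Cxcl12.

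Every value below is a log2 value as deposited, and a difference is EAE minus healthy unless stated otherwise. A gene is said to have risen or fallen where limma's two-sided test gave a Benjamini-Hochberg adjusted p under 0.05 over all 18194 genes. Errors of means are SDs over arrays, errors of differences are moderated SEs, and every adjusted p is from limma. Values of different probe sets cannot be set against each other as amounts of RNA. The mean over all arrays lay below 9.26, the median of all genes, for 44 of the 52 genes, and below 7.44, the lower quartile, for 21. Array medians lay between 8.22 and 8.32.

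Promoter sequences are shown first for 5 CXC ligands on mouse chromosome 5. Of these, Cxcl9 and Cxcl10 passed in the comparison of regions within EAE mice described further on. The other 3, Cxcl1, Cxcl2 and Cxcl3, did not pass any test. The 5 were picked with these results in view, and whether the motifs bear on the results was not tested. The sequences are RefSeq's on build GRCm38.p6, and 39 of the 52 genes had an entry. Of the genes discussed below, Ccl2, Ccl4, Ccl5, Ccl7, Cxcl5, Cxcl11, Cxcl16, Ccr7 and Cxcr5 had none. Each window runs 5′ to 3′ on the gene's own strand. It covers 250 bases before and 50 bases from the annotated start for Cxcl9 (chr5:92328030-92328329, minus strand) and Cxcl10 (chr5:92348840-92349139, minus strand). For Cxcl1 (chr5:90891145-90891244), Cxcl2 (chr5:90903799-90903898) and Cxcl3 (chr5:90786001-90786100), all on the plus strand, it covers the 100 bases before the start. Capitals mark matches on either strand to any of 4 motifs, which are the kappa B core GGANTTTCC, the interferon response element core GAAANNGAA, the gamma-activated site (GAS) TTCNNNGAA and the AP-1 site TGANTCA.
Cxcl9: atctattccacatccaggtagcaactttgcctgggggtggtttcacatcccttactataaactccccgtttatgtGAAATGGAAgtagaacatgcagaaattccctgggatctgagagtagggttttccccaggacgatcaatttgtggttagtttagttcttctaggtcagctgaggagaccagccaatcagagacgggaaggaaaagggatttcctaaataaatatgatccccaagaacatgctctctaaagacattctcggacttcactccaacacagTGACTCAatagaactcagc
Cxcl10: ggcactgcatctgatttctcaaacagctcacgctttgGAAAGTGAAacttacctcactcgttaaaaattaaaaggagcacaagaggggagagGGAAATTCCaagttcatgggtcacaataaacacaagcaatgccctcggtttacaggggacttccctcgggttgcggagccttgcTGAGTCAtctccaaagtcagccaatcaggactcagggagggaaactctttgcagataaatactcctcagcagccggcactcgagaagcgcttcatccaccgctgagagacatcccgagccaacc
Cxcl1: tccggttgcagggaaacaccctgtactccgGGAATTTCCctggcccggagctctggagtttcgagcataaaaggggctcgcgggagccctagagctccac
Cxcl2: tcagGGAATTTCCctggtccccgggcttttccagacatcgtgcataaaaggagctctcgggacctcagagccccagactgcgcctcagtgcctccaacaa
Cxcl3: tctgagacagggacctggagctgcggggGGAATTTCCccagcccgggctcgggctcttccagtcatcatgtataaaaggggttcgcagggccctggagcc
In Cxcl10 the interferon response element core began at base -213, the kappa B core at -158 and the AP-1 site at -74, where base 0 is the annotated start. In Cxcl9 the interferon response element core began at -175 and an AP-1 match at 31. Cxcl1, Cxcl2 and Cxcl3 carried the same 9 letters, GGAATTTCC, beginning at -70, -96 and -72. The kappa B core was present in 5 of the 39 genes with an entry and in 1.25% of all 32851 promoters of this length. The interferon response element core was present in 6 of 39 (8.56% of all promoters), the GAS in 3 of 39 (8.3%) and the AP-1 site in 7 of 39 (7.81%). The windows of Ccl12, Ccl8, Ackr2, Ackr3, Cxcr3 and Cx3cl1 held no match to the 4 motifs, and that of Ccl17 held a GAS at -99. A match describes letters in the window and not a bound site, and other forms of these motifs were not searched.

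Some single arrays read high across many members. The sensory array of healthy mouse 1, 1 of the 2 arrays from the second chip processing day, was the highest of its 4 for 34 of the 52 genes and for 12 of the 19 receptors. The motor array of EAE mouse 1 and the sensory array of EAE mouse 3 were each the highest of their 6 for 23 of 52, and for 11 and 10 of the 19 receptors. Without the arrays of the second day (sensory of healthy mouse 1 and motor of healthy mouse 4, and both mice for the averaged arrays) no member was called in motor cortex, in sensory cortex or in the averaged arrays, where 194, 118 and 6 of all genes were then called.

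The first question was which chemokine genes differed between EAE and healthy cortex. With the 2 arrays of each mouse averaged, 8 genes rose (15.4% of the 52, against 2.23% of all genes tested) and 3 fell (5.77%, against 5.64%). Among the genes that rose were the monocyte attractants Ccl12 and Ccl2, the CC ligand Ccl8, and the T cell attractants Ccl5 and Cxcl10. The others were Ccl17, which acts on Ccr4, the atypical receptor Ackr2, and Cxcr3. The genes that fell were Ackr3, Ccl27a and Cx3cl1. In either direction 11 of 52 passed, against 7.87% of all genes. Ligands made up 6 of the 8 rises and 2 of the 3 falls. The median difference over the 52 genes was 0.10, against 0 over all genes, and 42 of 52 differences were positive, against 50.1% of all genes. Members were chosen by symbol and not by their values.

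**Figure D1:**
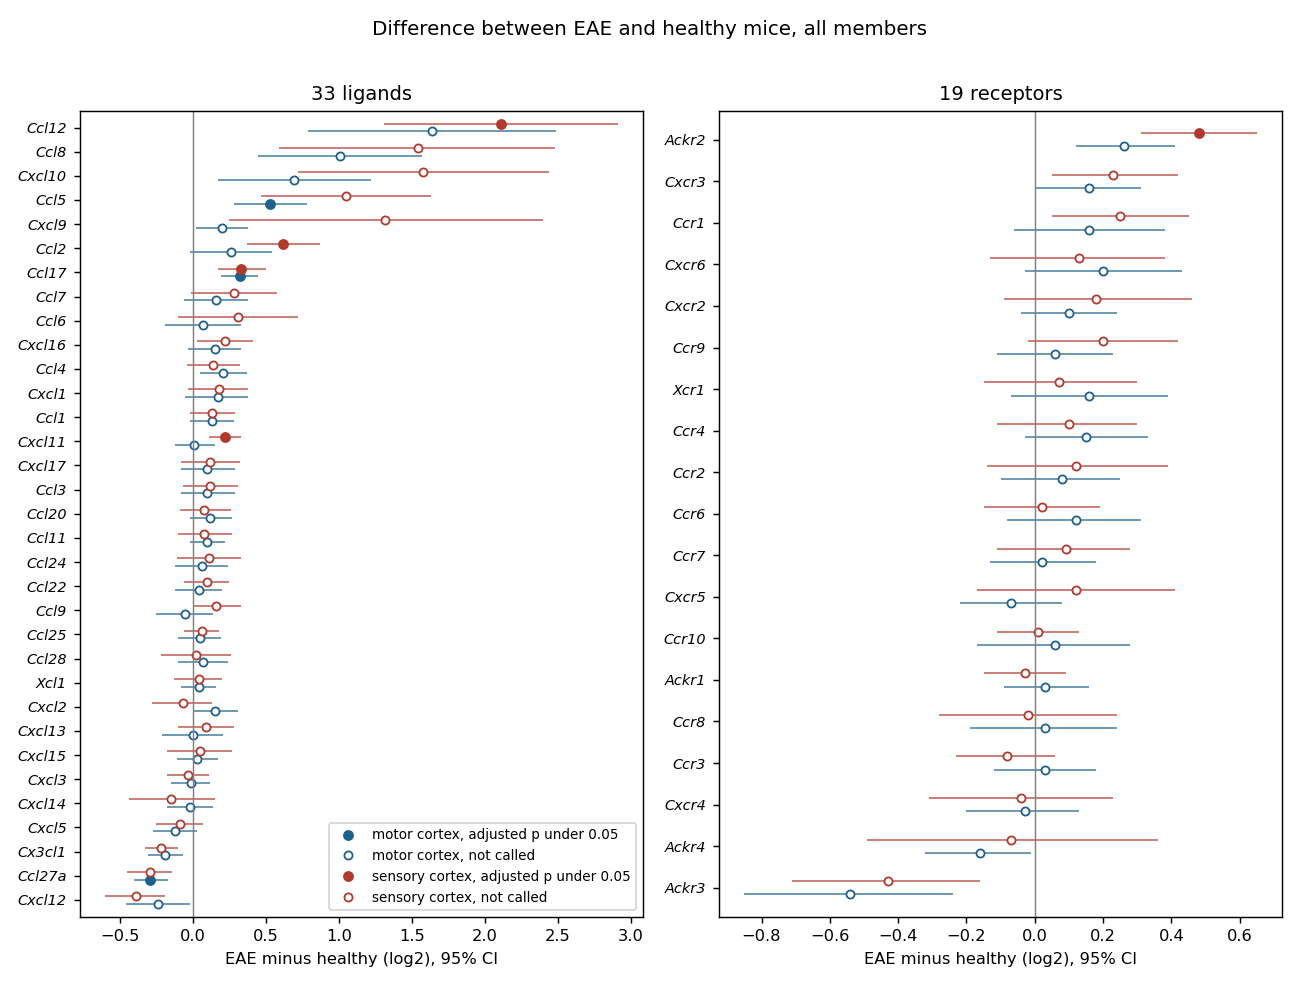
Difference between EAE and healthy mice (log2, horizontal axis) for each of the 33 ligands (left) and 19 receptors (right), ordered by the difference averaged over both regions. Blue is motor and red is sensory cortex, lines are 95% confidence intervals, and filled points had a limma adjusted p under 0.05; 5 ligands stand above 0.5 in motor or sensory cortex beside Ccl12, and no receptor does.

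Region by region fewer genes passed. In motor cortex Ccl17 and Ccl5 rose and Ccl27a fell, which is 3 of 52 (5.77%) against 2.25% of all genes called in either direction, 0.517% higher and 1.74% lower. In sensory cortex Ccl12, Ccl2, Ccl17, Cxcl11 and Ackr2 rose and none fell, which is 5 of 52 (9.62%) against 2.41% of all genes, 0.901% higher and 1.51% lower. The absence of falls in sensory cortex depended on the setting, with 6 rises and 3 falls when genes below the lower quartile were left out, 4 and 3 with a trended robust prior, 9 and 3 with all 20 arrays in 1 fit, and 5 and 4 without EAE mouse 1. All 6 EAE arrays lay above all 4 healthy arrays for 5 of the 52 genes in motor cortex (1.48% of all genes) and for 8 in sensory cortex (2.45%). All EAE arrays lay below all healthy arrays for Ccl27a and Cx3cl1 in each region, where the share of all genes was 4.19% in motor and 4.04% in sensory cortex. These counts rested on few healthy mice. Without healthy mouse 1 or 4 no member was called in motor cortex, without healthy mouse 2 there was 1, and without EAE mouse 1 there were 5. Without any 1 of the 4 healthy mice none was called in sensory cortex, and without EAE mouse 1, 3, 4 or 5 there were 9, 8, 3 and 2. Without healthy mouse 1, 2, 3 or 4 the count in the averaged arrays was 4, 5, 4 and 5, and without EAE mouse 5 it was 6.

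Ccl12, a mouse monocyte attractant that signals through Ccr2, showed the largest difference of any member. In motor cortex the healthy arrays read 7.27, 7.06, 7.04 and 7.26, and the EAE arrays ran from 7.48 through a median of 8.8 to 10.24. In sensory cortex the healthy arrays read 7.21, 7.01, 7.22 and 7.16, and the EAE arrays ran from 8.15 through 9.41 to 10.16. The groups did not overlap in either region, and EAE mouse 5 was highest in both. The difference was 2.11 ± 0.36 in sensory cortex (adjusted p = 0.023), a 4.32-fold rise, and 1.64 ± 0.39 in motor cortex (adjusted p = 0.0509). Averaged over both regions Ccl12 rose by 1.88 ± 0.35 (adjusted p = 0.0114), and it was called whichever mouse was left out (adjusted p up to 0.0481). EAE mouse 1 stood apart between its own regions, at 7.48 in motor and 9.51 in sensory cortex. Without it Ccl12 in motor cortex also passed (adjusted p = 0.0208).

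Ccl8, another CC ligand, followed. Healthy motor arrays read 7.89, 7.63, 7.92 and 7.8, against 8.02, 8.75 and 9.72 for the lowest, median and highest EAE arrays. Healthy sensory arrays read 8, 7.53, 7.73 and 7.44, against 8.03, 9.22 and 10.34. The groups did not overlap, although the sensory array of EAE mouse 3 lay just above that of healthy mouse 1. EAE mice 2, 4 and 5 held the 3 highest values in each region. The difference was 1.01 ± 0.26 in motor cortex (adjusted p = 0.0658) and 1.54 ± 0.43 in sensory cortex (adjusted p = 0.0906), and the average over both rose by 1.27 ± 0.33 (adjusted p = 0.04). That call was lost without EAE mouse 2, 4 or 5 or any healthy mouse, with an adjusted p of up to 0.139.

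Ccl2, the prototype ligand of Ccr2, changed less. In sensory cortex the healthy arrays read 6.66, 6.61, 6.57 and 6.28, and the EAE arrays ran from 6.82 through 7.1 to 7.54, with no overlap. The rise was 0.62 ± 0.11 (adjusted p = 0.027), which was lost without EAE mouse 4 or 5 or any healthy mouse (adjusted p up to 0.108). In motor cortex the healthy arrays read 6.66, 6.71, 6.78 and 6.52, and 4 of 6 EAE arrays lay above them, a difference of 0.26 ± 0.13 (adjusted p = 0.343). Averaged over both regions Ccl2 rose by 0.44 ± 0.11 (adjusted p = 0.0378), and this call remained only without EAE mouse 1, 3 or 6. The related Ccl7 stood at 0.22 ± 0.11 in the averaged arrays (adjusted p = 0.225).

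Ccl5 (RANTES), which attracts T cells and monocytes, rose in motor cortex by 0.53 ± 0.12 (adjusted p = 0.0357). There the healthy arrays read 7.83, 7.75, 7.78 and 7.55 and the EAE arrays 8.05, 8.14 and 8.59 at lowest, median and highest. In sensory cortex the healthy arrays read 7.96, 7.72, 7.52 and 7.67 and the EAE arrays 8.17, 8.64 and 9.47. Groups were separate in both regions, and in sensory cortex EAE mice 5, 2 and 1 stood highest. The sensory difference was 1.05 ± 0.26 (adjusted p = 0.0683), with an SD of 0.58 over the EAE arrays, against 0.25 in motor cortex. The average over both regions rose by 0.79 ± 0.18 (adjusted p = 0.0265). The motor call was lost without EAE mouse 2 or any healthy mouse (adjusted p up to 0.126), and the averaged one without any healthy mouse (adjusted p up to 0.0902).

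Ccl5 also overlaps a long noncoding RNA gene, Gm32650, in RefSeq. In all, 18 of the 52 genes overlap another RefSeq gene. Among them are Cxcl10 and Cxcl11 (both with Art3), Cx3cl1 (Gm51543), Ccl27a (Il11ra1), Ackr1 (Cadm3) and Ackr4 (Acad11). The overlap was of gene positions, without regard to strand or exons, so whether a probe set there reads both genes is unknown.

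RefSeq places 11 of the 18 CC ligands on chromosome 11 (Ccl1 to Ccl9, Ccl11 and Ccl12). All 11 differences were positive in the averaged arrays, where 42 of all 52 members and 50.1% of all genes were. Of the 11, 4 passed, those of Ccl12, Ccl8, Ccl5 and Ccl2, where 8 of the 52 members and 2.23% of all genes rose. The other 7 lay between 0.05 and 0.22, with the widest confidence interval reaching 0.48. Among these were the macrophage inflammatory proteins, Ccl3 at 0.11 ± 0.06 (adjusted p = 0.269) and Ccl4 at 0.18 ± 0.05 (adjusted p = 0.0685). Of the 9 CXC ligands on chromosome 5, 7 were positive and 1, Cxcl10, passed, beside the same shares of all members and all genes.

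Cxcl10 (IP-10), the interferon-inducible ligand of Cxcr3, had the largest CXC difference. Healthy motor arrays read 7.54, 7.74, 7.46 and 7.6, and the EAE arrays ran from 7.62 through 8.16 to 9. Healthy sensory arrays read 7.59, 7.59, 7.41 and 7.23, and the EAE arrays ran from 8.25 through 8.76 to 10.59. In motor cortex EAE mouse 1 lay within the healthy range, whereas in sensory cortex all 6 EAE arrays lay above it. The differences were 0.69 ± 0.24 in motor (adjusted p = 0.179) and 1.58 ± 0.39 in sensory cortex (adjusted p = 0.0643). The average over both regions rose by 1.13 ± 0.31 (adjusted p = 0.0479), and was lost without EAE mouse 4 or 5 or any healthy mouse (adjusted p up to 0.136).

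Cxcl9 (MIG), the second Cxcr3 ligand and an interferon-gamma target, differed widely between mice. In sensory cortex EAE mice 1 to 6 read 7.78, 9.05, 5.99, 6.44, 7.45 and 6.39, against 6.01, 5.78, 5.8 and 5.84 in healthy mice. EAE mouse 3 lay in the healthy range and the other 5 lay above it. The difference was 1.32 ± 0.49 (adjusted p = 0.181), and without mouse 3 it was the highest of the single-mouse exclusions at 1.66 and passed (adjusted p = 0.0418). In motor cortex the EAE arrays ran only from 6.02 to 6.35, against 6.03, 5.73, 6.01 and 6.05 in healthy mice, a difference of 0.20 ± 0.08 (adjusted p = 0.271). A second, dimmer Cxcl9 probe set gave 0.26 ± 0.12 for sensory cortex and -0.03 ± 0.07 for motor cortex.

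The RNA of Cxcl11 (I-TAC), a further CXC ligand gene, rose in sensory cortex by 0.22 ± 0.05 (adjusted p = 0.0487), and its protein was not measured. Its healthy arrays there read 7.59, 7.62, 7.44 and 7.5 and its EAE arrays ran from 7.68 through 7.73 to 7.91, with no overlap. The call remained only without EAE mouse 1 (adjusted p up to 0.191 without any other mouse), and the second Cxcl11 probe set stood at 0.02 ± 0.05. In motor cortex the difference was 0.01 ± 0.06 (adjusted p = 0.936).

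**Figure D2:**
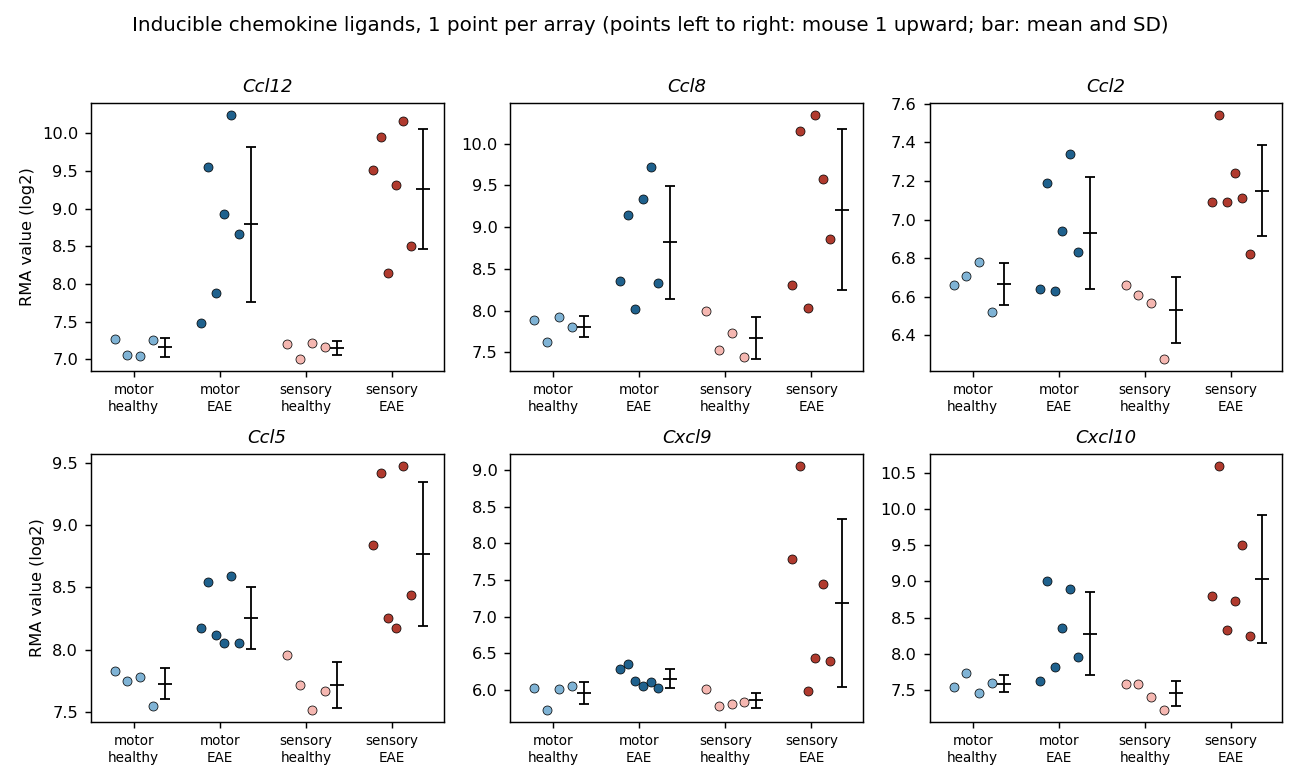
Log2 value of each array (vertical axis, scaled per gene) for 6 inducible ligands in the 4 groups of region and condition. Points are single mice, ordered left to right by mouse number, and bars are means with SD; healthy arrays lie close together, while the EAE arrays of Cxcl9 in sensory cortex spread from 5.99 to 9.05 and those of Ccl12 in motor cortex from 7.48 to 10.24.

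Ccl17 (TARC) was the one gene called in both regions when each was tested alone. It rose by 0.32 ± 0.06 in motor cortex (adjusted p = 0.0185), where the healthy arrays read 8.25, 8.32, 8.34 and 8.19 and the EAE arrays ran from 8.46 through 8.6 to 8.73. It rose by 0.33 ± 0.08 in sensory cortex (adjusted p = 0.0496), where healthy arrays read 8.3, 8.16, 8.2 and 8.28 and EAE arrays ran from 8.38 through 8.62 to 8.71. No overlap was seen in either region, and the rise was small. In sensory cortex EAE mice 3 and 4 read 8.38 and 8.42, nearest the healthy arrays, and the other EAE mice read 8.61 to 8.71. The motor call was lost without healthy mouse 1 or 4 (adjusted p up to 0.0747), and the sensory call remained only without EAE mouse 3 (adjusted p up to 0.184). The average over both regions rose by 0.33 ± 0.05 (adjusted p = 0.00664) and was called whichever mouse was left out. Ccl22, the other ligand of Ccr4, stood at 0.07 ± 0.04 (adjusted p = 0.35).

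Ligands that attract neutrophils through Cxcr2 did not pass. Cxcl1 stood at 0.17 ± 0.06 (adjusted p = 0.0875), Cxcl2 at 0.04 ± 0.07 (adjusted p = 0.749), Cxcl3 at -0.02 ± 0.04 (adjusted p = 0.733) and Cxcl5 at -0.11 ± 0.04 (adjusted p = 0.165) in the averaged arrays. The confidence intervals of these 4 lay between -0.21 and 0.3. Cxcl1 had 2 further, dimmer probe sets, at 0.34 ± 0.09 and 0.20 ± 0.06, with adjusted p of 0.0664 and 0.11 over all probe sets. The neutrophil markers measured beside them moved more. Of these, 5 of 7 rose in the averaged arrays, against 2.23% of all genes, with S100a8 up by 1.77 ± 0.21 (adjusted p = 0.00224).

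Cxcl13, the B cell attractant and ligand of Cxcr5, depended on the probe set. With the brightest probe set, used throughout, the difference was 0.00 ± 0.10 in motor cortex and 0.09 ± 0.09 in sensory cortex. The second read 6.38, 7.2, 6.58, 5.94, 6.02 and 6.06 in the sensory arrays of EAE mice 1 to 6, against 6.01, 5.56, 5.77 and 5.65 in healthy mice. Mice 2, 3 and 1 stood highest there, and the difference was 0.61 ± 0.18 (adjusted p = 0.135 over all probe sets). In motor cortex this second probe set stood at 0.21 ± 0.07 (adjusted p = 0.262), and in the averaged arrays at 0.41 ± 0.10 (adjusted p = 0.0605). Cxcl16, the ligand of Cxcr6, stood at 0.18 ± 0.06 (adjusted p = 0.082) with one probe set and 0.33 ± 0.13 (adjusted p = 0.171 over all probe sets) with the other. Ccl20, which recruits Th17 cells through Ccr6, stood at 0.10 ± 0.05 (adjusted p = 0.231).

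The 13 ligands outside the rule for named genes, Ccl22, Cxcl3 and Cxcl5 among them, had differences between -0.11 and 0.19 in the averaged arrays. By that rule none of them had passed a test.

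Cx3cl1, the neuronal ligand of Cx3cr1 on microglia, read 13.43, 13.41, 13.38 and 13.34 in healthy motor cortex and 13.42, 13.42, 13.38 and 13.36 in healthy sensory cortex. Its EAE arrays ran from 13.09 through 13.22 to 13.3 in motor and from 13.04 through 13.21 to 13.24 in sensory cortex, below all healthy arrays in both. The differences were -0.19 ± 0.06 (adjusted p = 0.109) and -0.22 ± 0.05 (adjusted p = 0.0626), and the average over both fell by 0.20 ± 0.05 (adjusted p = 0.0251). This is a fold of 0.868, and the call was lost without EAE mouse 5 or any healthy mouse (adjusted p up to 0.075). The 3 other Cx3cl1 probe sets stood at -0.20 ± 0.07, -0.14 ± 0.16 and 0.05 ± 0.08. Cx3cr1 itself fell by 0.64 ± 0.17 (adjusted p = 0.0468).

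Ccl27a fell by 0.29 ± 0.05 in motor cortex (adjusted p = 0.0177). Its healthy motor arrays read 12.8, 12.79, 12.71 and 12.87 and its EAE motor arrays ran from 12.45 through 12.51 to 12.55. In sensory cortex healthy arrays read 12.73, 12.67, 12.81 and 12.83, EAE arrays ran from 12.31 through 12.46 to 12.63, and the difference was -0.29 ± 0.07 (adjusted p = 0.056). EAE arrays lay below healthy ones in both regions. The motor call was lost without healthy mouse 1, 2 or 4 (adjusted p up to 0.0742), and the sensory one was reached without EAE mouse 1 (adjusted p = 0.0124). The averaged difference, a fall of 0.29 ± 0.05 (adjusted p = 0.00735), was called whichever mouse was left out. Ccl27a is a skin chemokine that acts on Ccr10; it overlaps Il11ra1 and has near-identical copies, which share 2 other probe sets with it, so the gene read by this probe set is uncertain.

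Cxcl12 (SDF-1), which holds leukocytes at vessels through Cxcr4, lay lower without passing. Healthy motor arrays read 11.04, 11.12, 10.8 and 10.82 and EAE motor arrays ran from 10.17 through 10.81 to 11.02. Healthy sensory arrays read 11.16, 11.23, 10.84 and 10.88 and EAE sensory arrays ran from 10.15 through 10.71 to 10.91. Groups overlapped in both regions, with EAE mouse 6 lowest in each. The differences were -0.24 ± 0.10 (adjusted p = 0.273) and -0.39 ± 0.09 (adjusted p = 0.0571), and the average was -0.32 ± 0.09 (adjusted p = 0.0583). The other 2 Cxcl12 probe sets stood at -0.37 ± 0.10 and 0.03 ± 0.05 in the averaged arrays. Cxcl14, abundant in interneurons, stood at -0.08 ± 0.08 (adjusted p = 0.56).

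Among the receptors, the atypical ones moved in both directions. Ackr2 (D6) rose by 0.48 ± 0.08 in sensory cortex (adjusted p = 0.0205). Its healthy sensory arrays read 8.26, 8.2, 8.2 and 8.12, and the EAE arrays ran from 8.45 through 8.67 to 8.9. In motor cortex healthy arrays read 8.17, 8.43, 8.34 and 8.22 and EAE arrays ran from 8.45 through 8.56 to 8.63, a difference of 0.26 ± 0.07 (adjusted p = 0.0635). All EAE arrays lay above all healthy arrays in both regions. The sensory call was lost without any 1 healthy mouse (adjusted p up to 0.0927). The averaged difference, a rise of 0.37 ± 0.05 (adjusted p = 0.00371), was called whichever mouse was left out, and the other 2 Ackr2 probe sets stood at 0.17 ± 0.06 and 0.24 ± 0.06.

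Ackr3, the scavenger of Cxcl12 formerly called Cxcr7, fell. Healthy motor arrays read 10.34, 10.17, 10.67 and 10.06 and EAE motor arrays ran from 9.48 through 9.73 to 10.12. Healthy sensory arrays read 9.66, 9.82, 9.93 and 9.82 and EAE sensory arrays ran from 9.06 through 9.3 to 9.75. In each region 5 of 6 EAE arrays lay below all healthy arrays. The differences were -0.54 ± 0.14 in motor (adjusted p = 0.0658) and -0.43 ± 0.12 in sensory cortex (adjusted p = 0.0976), and the average fell by 0.49 ± 0.11 (adjusted p = 0.0206), a fold of 0.713. That call was lost without healthy mouse 1 or 3 (adjusted p up to 0.0727). Ackr4 stood at -0.11 ± 0.09 (adjusted p = 0.436) and Ackr1 at 0.00 ± 0.05 (adjusted p = 0.989). The Ackr1 probe set read 11.97 to 12.22 on all 20 arrays, and Ackr1 overlaps Cadm3, an abundant neuronal gene, so its value is uncertain.

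Cxcr3, the receptor of Cxcl9 and Cxcl10 on T cells, rose in the averaged arrays by 0.20 ± 0.05 (adjusted p = 0.0324). Healthy motor arrays read 7.88, 7.83, 7.88 and 7.81 and EAE motor arrays ran from 7.83 through 7.94 to 8.23. Healthy sensory arrays read 8.03, 7.72, 7.83 and 7.79 and EAE sensory arrays ran from 7.97 through 8.03 to 8.33. The groups overlapped in both regions, and the differences were 0.16 ± 0.07 (adjusted p = 0.298) and 0.23 ± 0.08 (adjusted p = 0.167). The call remained only without EAE mouse 1 or 4 (adjusted p up to 0.0963 without any other mouse).

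None of the other signalling receptors passed. The 9 CC receptors lay between -0.03 and 0.20 in the averaged arrays, with confidence intervals between -0.18 and 0.39. Ccr2, which monocytes carry, stood at 0.10 ± 0.07 (adjusted p = 0.42), and 3 other Ccr2 probe sets at 0.13 ± 0.06, 0.06 ± 0.06 and 0.22 ± 0.08. Ccr1 stood at 0.20 ± 0.08 (adjusted p = 0.15), Ccr6 at 0.07 ± 0.07 and Ccr7, the lymph node homing receptor, at 0.06 ± 0.06. Among the CXC receptors, Cxcr2 on neutrophils stood at 0.14 ± 0.06 (adjusted p = 0.193), Cxcr4 at -0.04 ± 0.07 (adjusted p = 0.78), Cxcr5 at 0.03 ± 0.08 and Cxcr6 at 0.16 ± 0.09 (adjusted p = 0.286). A transcript carried by few cells in a tissue block may lie under what the array can measure, so these intervals limit the change of the probe signal.

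**Figure D3:**
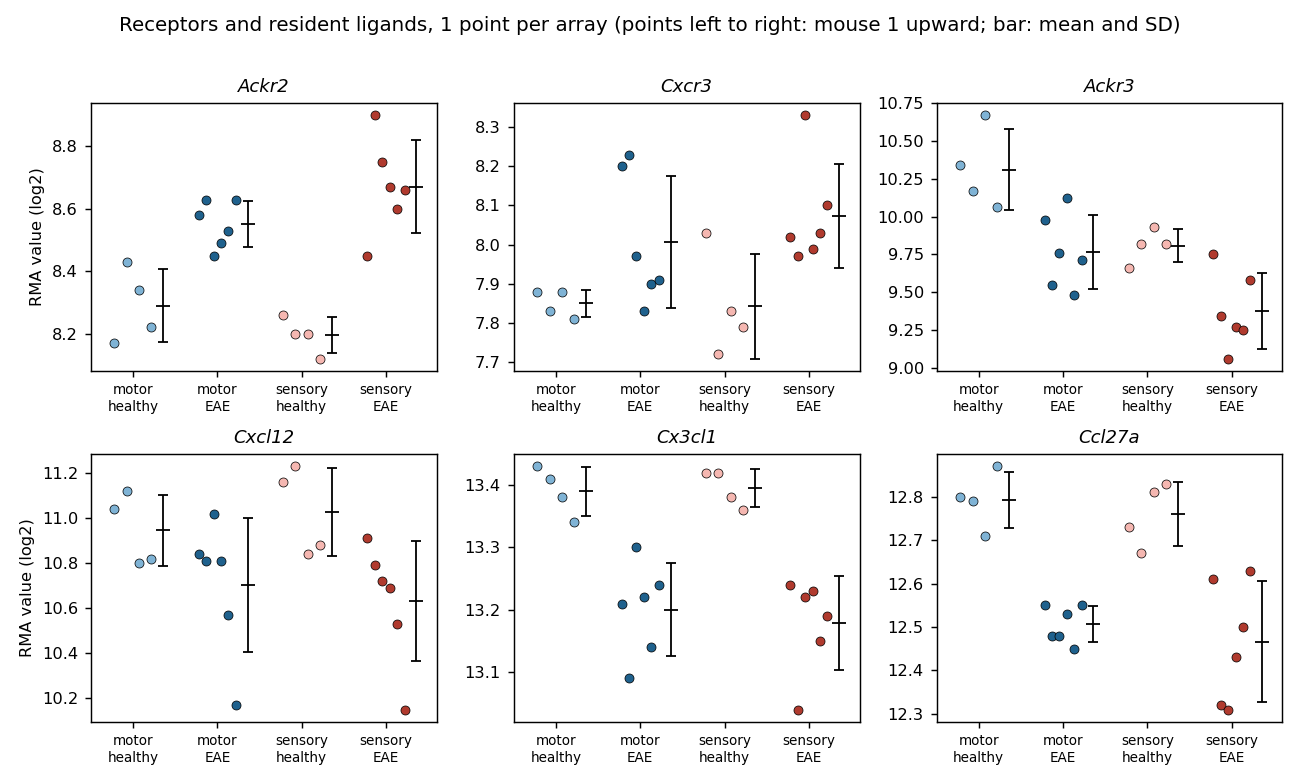
Log2 value of each array (vertical axis, scaled per gene) for receptors Ackr2, Cxcr3 and Ackr3 and ligands Cxcl12, Cx3cl1 and Ccl27a in the 4 groups of region and condition. Points are single mice, ordered left to right by mouse number, and bars are means with SD; all EAE arrays lie above the healthy ones for Ackr2 and below them for Cx3cl1 and Ccl27a in each region.

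The second question was whether the response differed between motor and sensory cortex. The difference between the regions' EAE effects was tested within mice, and 0 of the 52 genes and 0 of all 18194 genes passed in limma (background 0%). At an unadjusted p under 0.05 there were 7 members, against 2.32% of all genes. For 6 of the 7 the EAE effect was larger in sensory cortex, namely Cxcl10 (-0.89 ± 0.19, motor effect minus sensory effect), Cxcl9 (-1.12 ± 0.42), Ccl8 (-0.53 ± 0.24), Ccl5 (-0.52 ± 0.17), Ccl2 (-0.36 ± 0.10) and Cxcl11 (-0.20 ± 0.08). Cxcl2 went the other way at 0.23 ± 0.09. Each of these had a limma adjusted p of 1, so a regional difference of the response was not established for any single gene.

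Within EAE mice the 2 regions were compared directly, and 4 of the 52 genes passed (7.69%, against 6.12% of all genes, 3.22% higher and 2.9% lower in motor cortex). Without EAE mouse 2 only 1 passed, and without EAE mouse 1 or 4 or any healthy mouse 2 did. Cxcl10 was lower in motor cortex by -0.76 ± 0.12 (adjusted p = 0.00301). In mice 1 to 6 its motor minus sensory value was -1.18, -1.6, -0.51, -0.37, -0.6 and -0.28, below 0 in all 6, and the call held whichever mouse was left out. In the healthy mice it was -0.05, 0.15, 0.04 and 0.37. The size differed between cohorts, at -1.1 in cohort 1 and -0.42 in cohort 2.

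Ccl5 was lower in motor cortex by -0.51 ± 0.11 (adjusted p = 0.0136), with values of -0.67, -0.88, -0.13, -0.12, -0.88 and -0.39 in the EAE mice and -0.13, 0.03, 0.25 and -0.12 in the healthy ones. All 6 EAE mice had more in sensory cortex, and the call was lost without EAE mouse 2 (adjusted p = 0.0517). Cxcl9 was lower in motor cortex by -1.03 ± 0.26 (adjusted p = 0.0422). Its values were -1.5, -2.7, 0.13, -0.39, -1.34 and -0.37, so 5 of 6 EAE mice had more in sensory cortex, against 1 of 4 healthy mice. The Cxcl9 call remained only without EAE mouse 3 (adjusted p = 0.0017), with an adjusted p of up to 0.123 without another mouse.

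Ackr3 was higher in motor cortex by 0.39 ± 0.10 in the EAE mice (adjusted p = 0.0465). It was higher there by 0.50 ± 0.13 in the healthy mice too (adjusted p = 0.0557), and motor exceeded sensory in all 10 mice. The call in EAE mice remained only without EAE mouse 6 (adjusted p up to 0.126 without another mouse). In healthy mice 0 of the 52 genes passed in limma (3.31% of all genes did, 1.92% higher and 1.39% lower in motor cortex), and 3 had an unadjusted p under 0.05, against 14.1% of all genes. Ccl12, with the largest EAE effect, stood at -0.47 ± 0.20 motor minus sensory in the EAE mice without passing (adjusted p = 0.239). It read higher in sensory cortex in 4 of 6 EAE mice, and EAE mouse 1 alone differed by -2.03.

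**Figure D4:**
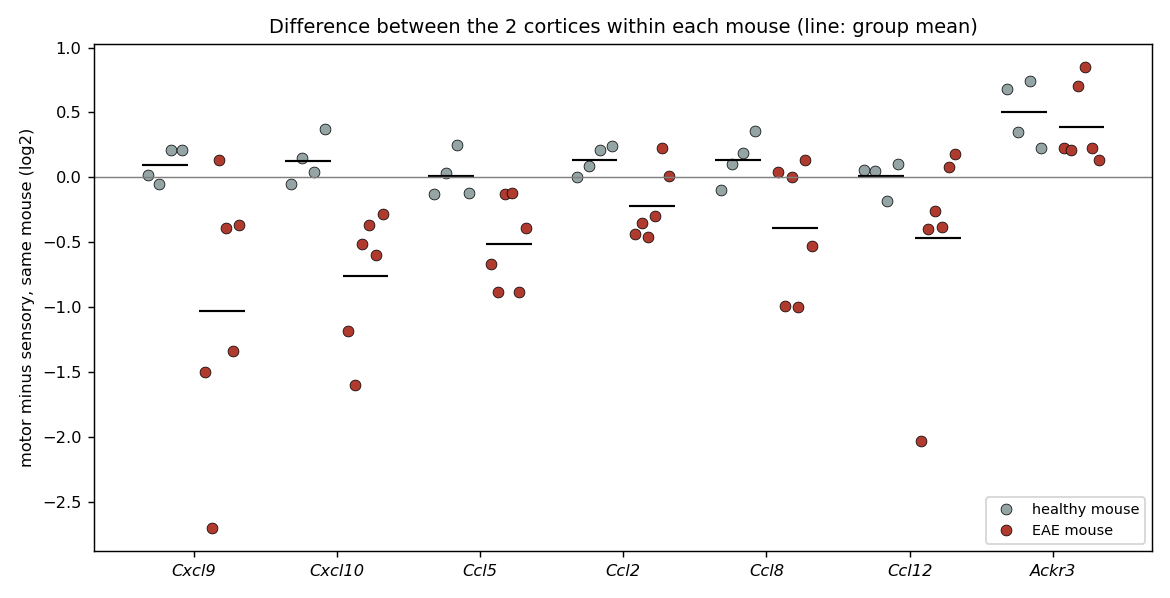
Motor minus sensory value of the same mouse (log2, vertical axis) for 6 ligands and Ackr3, with healthy mice in grey and EAE mice in red, 1 point per mouse, and lines at group means. Cxcl10 and Ccl5 lie below 0 in all 6 EAE mice, Cxcl9 in 5 of 6, and Ackr3 lies above 0 in all 10 mice.

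Other genes of the pathway were taken from a list of 42 genes for coreceptors, G proteins, kinases, regulators and adhesion molecules, of which 39 were measured. In the averaged arrays 4 rose and 5 fell, against 2.23% and 5.64% of all genes, with a median of 0.05. Those that rose were Cd74, the invariant chain and receptor of Mif (1.94 ± 0.41, adjusted p = 0.0184), the adhesion ligand Icam1 (0.51 ± 0.10, adjusted p = 0.0143), the proteoglycan Sdc4 (0.30 ± 0.06, adjusted p = 0.0182) and the leukocyte GTPase Rac2 (0.25 ± 0.05, adjusted p = 0.0182). Those that fell were Cx3cr1, the receptor kinase Grk5 (by 0.53 ± 0.06, adjusted p = 0.00242), the integrin Itgam, the G protein signalling regulator Rgs10 and the G protein subunit Gnb2. In motor cortex alone none rose and 3 fell (Grk5, Rgs10 and Itgam), and in sensory cortex 3 rose (Cd74, Icam1 and Rac2) and Grk5 fell. Of all genes, 0.517% rose and 1.74% fell in motor cortex, and 0.901% rose and 1.51% fell in sensory cortex. Arrb1 and Arrb2, the arrestins that turn receptors off, did not pass.

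Of 20 genes upstream of chemokines, inducers together with regulators such as Nfkbia and Tnfaip3, 18 were measured. Of the 18, 1 rose in the averaged arrays, Il1b (0.19 ± 0.05, adjusted p = 0.0359), against 2.23% of all genes. Tlr2 rose in sensory cortex (0.43 ± 0.08, adjusted p = 0.0283), where 0.901% of all genes rose. The interferon response genes Irf7 and Irf1 stood at 0.47 ± 0.13 (adjusted p = 0.0527) and 0.39 ± 0.13 (adjusted p = 0.0972), and Ifng itself at 0.03 ± 0.06 (adjusted p = 0.761). Within EAE mice Irf9, part of the type I interferon complex, was lower in motor cortex by -0.30 ± 0.04 (adjusted p = 0.00189). It was the only 1 of the 18 to pass there, where 2.9% of all genes were lower. Motor minus sensory, Irf7 stood at -0.23 ± 0.08 (adjusted p = 0.14), Irf1 at -0.10 ± 0.06 and Ifng at -0.06 ± 0.05. Stat2 stood at 0.03 ± 0.07 and Ifnb1 at 0.11 ± 0.09. A link of these genes to Cxcl9 and Cxcl10 was not tested.

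Markers of cells that carry or make chemokines moved beside these genes, and fewer cells of a type and less RNA per cell cannot be told apart in tissue blocks. Of all genes, 2.23% rose and 5.64% fell in the averaged arrays. Of 7 T cell markers 2 rose in the averaged arrays (Cd3g and Cd2), and the mean over the list ran from 7.19 to 7.31 in healthy and 7.28 to 7.39 in EAE motor arrays, and from 7.07 to 7.33 and 7.27 to 7.66 in sensory arrays. Of 9 monocyte and macrophage markers 5 rose (Lyz2, Ms4a4c, Mrc1, Cd163 and F13a1). Their mean ran from 7.53 to 7.64 in healthy and 7.71 to 8.03 in EAE motor arrays, and from 7.47 to 7.63 and 7.78 to 8.65 in sensory arrays, so healthy and EAE arrays did not overlap in either region. The mean of the 7 neutrophil markers ran from 7.06 to 7.2 in healthy and 7.63 to 7.9 in EAE motor arrays, and from 6.96 to 7.22 and 7.47 to 8.44 in sensory arrays.

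Of 9 microglia markers, Cx3cr1 among them, 7 fell, and their mean ran from 9.72 to 9.88 in healthy and 9.07 to 9.37 in EAE motor arrays, and from 9.62 to 9.82 and 8.97 to 9.47 in sensory arrays. Of 7 endothelial markers 4 fell (Cdh5, Flt1, Tek and Tie1), with a median of -0.25. For both lists the share of all genes that fell was 5.64%. None of the 6 neuron markers passed, and their mean ran from 13.69 to 13.87 over all arrays. Within EAE mice 4 of the 9 monocyte and macrophage markers (Lyz2, Plac8, Ms4a7 and Mrc1) were lower in motor than in sensory cortex, against 2.9% of all genes. So were 2 of 7 astrocyte markers (Gfap by -0.72 and Aqp4 by -0.25) and 2 of 6 meningeal markers (Igfbp2 by -0.68 and Dcn by -0.46). The same held for 1 of 5 choroid plexus markers (Ttr by -0.39) and 1 of 2 striatal markers (Ppp1r1b by -0.48). In healthy mice Ppp1r1b was also lower in motor cortex, by -0.45 ± 0.06 (adjusted p = 0.00259), and Gfap stood at -0.41 ± 0.10 (adjusted p = 0.0531), Igfbp2 at -0.32 ± 0.09 (adjusted p = 0.103) and Dcn at -0.26 ± 0.13 (adjusted p = 0.43). The other 6 of these markers, Lyz2, Plac8, Ms4a7, Mrc1, Aqp4 and Ttr, lay between -0.04 and 0.10 in healthy mice. The part of these markers in the chemokine differences was not tested.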

How the data were processed

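Gene expression was measured with Affymetrix arrays of 45101 probe sets. Per the submitters' processing notes, RMA and Partek were used to make the deposited log2 values. Their versions were not stated. RMA can compress differences at low signal. Probe sets with 1 symbol in the platform annotation (34958; 932 had several and 9211 were unlisted) were named, and the one with the highest mean stood for each of 18194 genes. For 19 of the 52 members that choice was between several. All 52 matched a RefSeq gene of GRCm38.p6 by Entrez identifier, and 0 symbols changed. Groups came from the labels.

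All tests used limma 3.58.1 under R 4.3.3 (two-sided, moderated by eBayes, with cohort as covariate, Benjamini-Hochberg over all genes). Motor and sensory cortex were fitted apart, on the mean of each mouse's 2 arrays, and on motor minus sensory of the same mouse. The labels' animal numbers pair the 2 regions of a mouse, and the correlation of their deviations was 0.163 to 0.587, except for EAE mouse 3 at -0.0316. The smallest root mean square difference between arrays of a group was 0.145, so none was counted as a repeat. Precision is limited by the number of arrays. The fits were tested on simulated data. Named genes were all members called in any of the 6 comparisons, those with a difference of 0.5 or more in a region, and a set of 33 well-known members, of which 29 were measured. Cxcl3, Cxcl5, Ccl22 and further probe sets are outside that rule and were picked with their values in view. The members and lists were chosen with earlier results of these data known. Alternatives tried were no cohort term, quantile normalization, the mean of probe sets, a filter on low genes, a trended robust prior, single cohorts, the first processing day, leaving out each mouse, blocks and 1 joint fit, and fits of every probe set were added after seeing the data.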

Additional observations from a re-analysis of the deposited data

Results flagged for a closer look

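Of 132 groups of a named gene, region and condition, 5 held an array far from the others by Dixon's criterion, and chance flags about 5% of groups. Ackr4 in sensory cortex of EAE mouse 3 read 6.86, against 7.84 for the nearest array. Ccr2 in motor cortex of EAE mouse 1 read 8.2 (nearest 7.96), and Cxcl1 in sensory cortex of healthy mouse 1 read 9.78 (nearest 9.44). Cxcl9 in motor cortex of healthy mouse 2 read 5.73 (nearest 6.01). Cxcr3 in sensory cortex of EAE mouse 3 read 8.33 (nearest 8.1).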

How the results depend on the processing

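Every member called kept its direction in all settings. The count of called members, 3 in motor and 5 in sensory cortex, was 5 in motor cortex without the cohort term. It was 6 and 9 of only 31 members tested with genes below the lower quartile left out, where 536 and 671 of all genes were called, against 410 and 438. With all 20 arrays in 1 fit it was 6 and 12 of 52, and 587 and 1015 of all genes were called. Within cohort 1 and cohort 2 it was 0 and 0 in motor and 0 and 1 in sensory cortex, and 0 and 4 (of 11) in the averaged arrays. Without the second processing day it was 0 in each of these 3. With the mouse number as a replicate block, which EAE and healthy mice share only as a number (correlations of deviations from -0.25 to 0.397), it was 5, 0 and 6. Leaving out 1 mouse gave 0 to 5 in motor cortex, 0 to 9 in sensory cortex and 4 to 12 in the averaged arrays. The difference between regions had 0 in every setting. Motor against sensory cortex in healthy mice (0) gave 1 without the cohort term, with quantile normalization, with those genes left out and with no replicate block, and 0 to 1 with 1 mouse left out. In EAE mice (4) it gave 0 within cohort 1, 0 within cohort 2, 2 without the second day, 0 with no replicate block and 1 to 3 with 1 mouse left out. Fewer mice were tested within cohorts, with mice left out and without the second processing day. Without that day the fit lacked healthy mouse 4 in motor cortex and healthy mouse 1 in sensory cortex. It lacked both where the 2 regions were used together, so processing day and loss of healthy mice cannot be told apart. The other causes were not tested. Over the named members one by one, 1735 alternative values kept their side of the threshold, 61 passed newly, 193 no longer passed and 0 calls reversed. A low signal limits what can be seen for the 21 members below the lower quartile.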
